A study of Arabidopsis thaliana with 12 samples.

Results

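Nearly ripe siliques of *hub1-2* were compared with those of *rdo2-1*, 2 reduced-dormancy mutants of *Arabidopsis thaliana* found in the same mutagenesis screen. The arrays were chosen by the genotype in their labels, 3 of *hub1-2* (labelled rdo4) and 3 of *rdo2-1* (labelled rdo2), which makes 6 of the 12 arrays of the series. The other arrays are 3 of the wild type Landsberg *erecta* (L*er*) and 3 of the mutant *rdo3*, and they are set beside the comparison without entering its test. Both mutants are in the L*er* background. *hub1-2* carries a mutation in *HUB1* and *rdo2-1* a small deletion in the gene for TFIIS that removes the zinc finger of the protein, so each genotype is 1 allele in 1 line. All plants were grown in long days, with 16 h of light at 22 °C and 8 h of darkness at 16 °C, and whole siliques, which hold the fruit wall together with the seeds, were harvested 18 to 19 days after pollination.

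Seed dormancy is set up while the embryo matures and dries, a phase in which storage proteins, oil and late embryogenesis abundant proteins accumulate, photosynthesis declines and the fruit wall ripens. HUB1 is a RING E3 ligase that attaches a single ubiquitin to histone H2B on transcribed genes, and TFIIS helps RNA polymerase II to resume elongation after it has stalled. Both proteins therefore act on the elongation of transcripts, by different routes, and the comparison asks where the transcript populations of the 2 mutants differ from each other.

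Levels are linear GC-RMA intensities (arbitrary units), and differences are given as *hub1-2* minus *rdo2-1* on the log2 scale. Arrays of the same genotype correlated with each other at 0.994 in *hub1-2* and between 0.987 and 0.989 on average in *rdo2-1*, and the median standard deviation of a probe set over 3 arrays was 0.13 in *hub1-2* and 0.21 in *rdo2-1* on the log2 scale. Over the probe sets kept, the median log2 intensity averaged 5.75 in *hub1-2* and 5.64 in *rdo2-1*, a shift of 0.12 between the genotypes. *rdo2-1* replicate 1 stood apart in the control probe sets for GAPDH, where the 3' signal exceeded the 5' signal by 1.80 on the log2 scale against 2.53 to 3.14 in the other 5 arrays. *HUB1* was higher in the *hub1-2* arrays (160.4, 169 and 212) than in those of *rdo2-1* (38.9, 36.6 and 48.3) and L*er* (86.8, 80.9 and 67.8), which leaves the label unchecked by its target, and no kept probe set is named for the TFIIS gene. Seed and fruit genes were abundant in both mutants, with mean intensities of 31243 in *rdo2-1* and 26983 in *hub1-2* for the storage protein gene *SESA1* and of 15512 and 10230.0 for *ADPG1*, a polygalacturonase gene of opening fruits.

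Of 14666 probe sets kept, 2867 passed (19.5%) in limma, where a call means an adjusted p (Benjamini-Hochberg) under 0.01, with 1747 higher (11.9%) and 1120 lower (7.64%) in *hub1-2*. The direction of the balance depended on the scaling. Of the calls, 60.9% were higher as deposited, 54.9% after quantile normalization (1492 higher, 1224 lower) and 42.8% with each array centred on its median (1197 higher, 1602 lower). All 1120 falls were also called lower with centred arrays, and so were 1197 of the 1747 rises called higher. A difference of at least 2-fold was found for 874 of the rises and 536 of the falls, and one of at least 4-fold for 88 and 89. L*er* lay between the means of the mutants for 1508 of the probe sets called higher (86.3%) and 906 of those called lower (80.9%), against 50.2% of all probe sets kept. The shares for *rdo3* were similar, at 87.7% and 82.3% against 54% of all. Called probe sets were chosen for a wide gap between the mutants, so another genotype falls inside it more often by construction. The mean of L*er* was nearer to that of *rdo2-1* for 65.8% of the rises and 63.3% of the falls, against 55.2% of all. The mean of L*er* went beyond that of *rdo2-1* for 188 rises and 162 falls, and beyond that of *hub1-2* for 51 and 52.

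**Figure D1:**
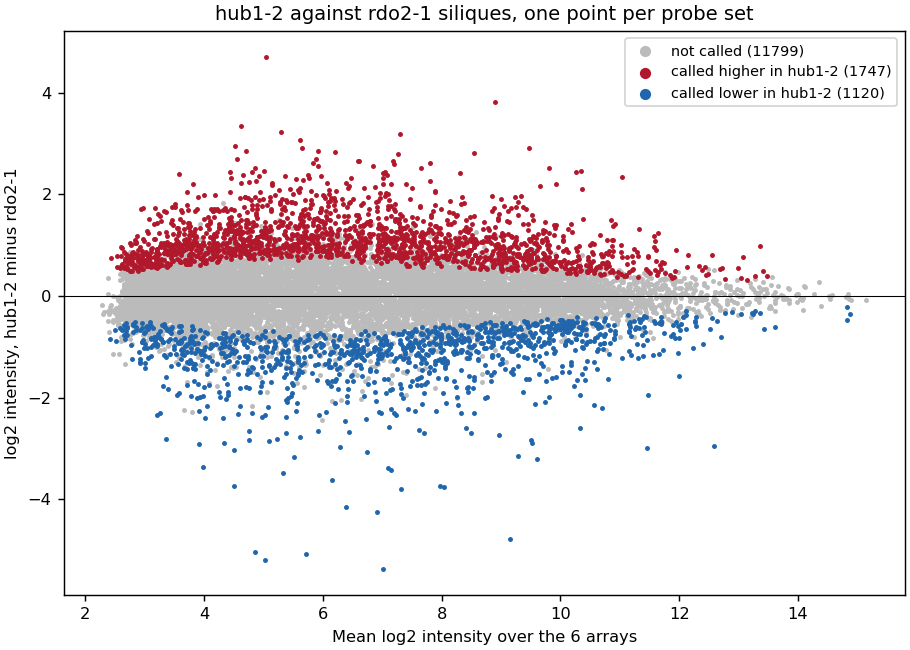
log2 intensity in *hub1-2* minus *rdo2-1* (vertical) against the mean log2 intensity over the 6 arrays (horizontal), one point for each of 14666 probe sets, red where called higher in *hub1-2* (1747), blue where called lower (1120) and grey where not called. The largest differences lie below 0.

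A probe set was named from the array annotation (8089 of those kept) or, for 1116 more, only through the study's own list of genes that differed from L*er*. The second source is not independent of the differences. Among probe sets named by the annotation, 10.6% were called higher and 7.26% lower, and among those named only through the study's list, 37.3% and 23.1%. For this reason the naming source is given beside the main gene groups.

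Among named genes of above-median intensity, the largest rises in *hub1-2* were led by *AT2G33830*, which encodes a dormancy and auxin associated family protein. Its intensity was 80.3, 158 and 162 in the *rdo2-1* arrays and 1664, 1667 and 2057 in those of *hub1-2* (limma, log2 difference 3.81, standard error 0.25, adjusted p = 3.2e-05), while L*er* stood between them at 327, 316 and 199. *HIS1-3*, a linker histone gene known for its induction by drought, read 254, 369.7 and 189 in *rdo2-1* and 1861, 1909 and 2085 in *hub1-2* (log2 difference 2.90, standard error 0.21, adjusted p = 4.97e-05), again with L*er* in between (587, 530.4 and 411). The groups did not overlap for either gene, and the *hub1-2* arrays were the more uniform relative to their level. *FLC*, the repressor of flowering, gave 56.7, 65.5 and 54.2 in *rdo2-1* and 433, 432 and 361 in *hub1-2* (log2 difference 2.80, standard error 0.16, adjusted p = 2.62e-05). L*er* arrays held 215, 243 and 215, below all those of *hub1-2* and above all those of *rdo2-1*, so *FLC* lay on opposite sides of the wild type in the 2 mutants. *E12A11*, the reference symbol of *MOTHER OF FT AND TFL1*, a regulator of germination, was named through the study's list. It was 51.5, 68.0 and 61.3 in *rdo2-1* and 393, 358 and 332 in *hub1-2* (log2 difference 2.59, standard error 0.16, adjusted p = 3.14e-05). *AT4G14270* (3.19, adjusted p = 3.14e-05) and *AT1G56300*, a DnaJ domain gene (2.65, adjusted p = 0.000142), belonged to the same 12 rises. The bHLH gene *AT1G10585* varied within *hub1-2*, at 141, 97.2 and 312, against 32.7, 18.8 and 18.9 in *rdo2-1* (2.84, adjusted p = 0.000931). The other 5 of the 12, *EDA10*, *AT1G01800*, *AT1G01940*, *SBI1* and *AT1G02370*, are neighbours on chromosome 1 and are described with their region.

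Falls reached further than rises, to -5.37 against 4.7 over all 9123 named genes measured, those of low intensity included. *AT3G04150*, a germin-like gene of a family of secreted proteins, was at 940.4, 509.8 and 1190.2 in *rdo2-1* and at 20.8, 23.4 and 16.6 in *hub1-2* (limma, log2 difference -5.37, standard error 0.29, adjusted p = 2.62e-05), a 41.4-fold difference. Its neighbour in the family, *AT3G04170*, went from 3282, 1999 and 4026 to 89.1, 156 and 93.1 (log2 difference -4.77, standard error 0.28, adjusted p = 2.84e-05). L*er* had 309.6, 439 and 991 for the first and 1456, 2313 and 4225 for the second, overlapping *rdo2-1* in both and far above *hub1-2*. The lipid transfer family genes *AT5G38160* (298, 1301 and 2013 in *rdo2-1*, 85.1, 32.6 and 117 in *hub1-2*, log2 difference -3.74, standard error 0.67, adjusted p = 0.00286) and *AT5G38170* (-3.38, adjusted p = 0.00219) had their lowest *rdo2-1* value in replicate 1. Without *rdo2-1* replicate 2 the adjusted p of *AT5G38160* was 0.0109, which misses the threshold, at a log2 difference of -3.49. *LTP3*, another lipid transfer protein gene, differed in a separate way, since *rdo2-1* (822, 174 and 1013) exceeded L*er* (11.2, 48.5 and 146) as well as *hub1-2* (53.2, 14.8 and 26.9, log2 difference -4.25, standard error 0.64, adjusted p = 0.00135). The remaining falls were *AT1G62210* (-4.15, adjusted p = 0.00143), the dehydrogenase family gene *AT2G47120* (-3.07, adjusted p = 0.000257), *AT5G16230*, an acyl carrier protein desaturase gene (-2.96, adjusted p = 9.02e-05), *AT5G39220* (-2.90, adjusted p = 3.2e-05), *CYP78A9*, a cytochrome P450 gene that affects fruit and seed growth (-2.84, adjusted p = 0.000193), and the plastid genes *psbC* and *psaB*. *AT1G62210* varied widely within *rdo2-1*, from 113 in replicate 2 to 1066 in replicate 3, and its 24.5, 19.1 and 17.1 in *hub1-2* lay below them all.

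**Figure D2:**
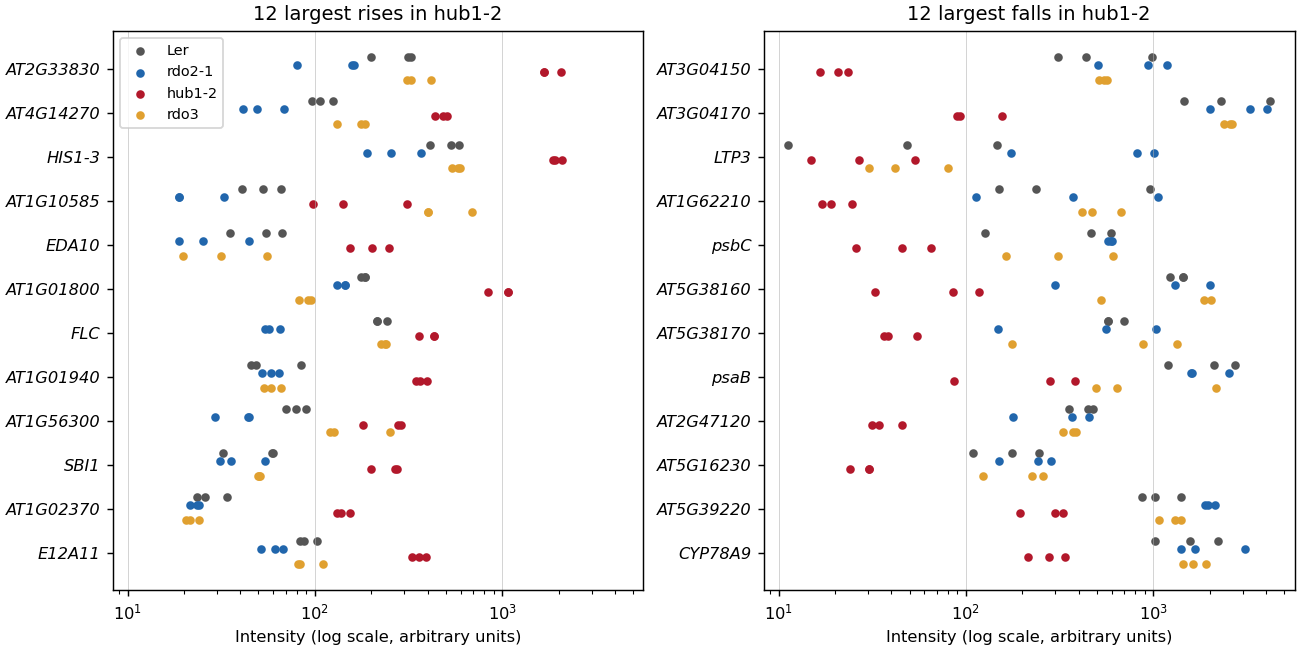
Intensity of each array (log axis, arbitrary units) for the 12 largest rises (left) and 12 largest falls (right) of *hub1-2* against *rdo2-1*, with 3 points per genotype (grey L*er*, blue *rdo2-1*, red *hub1-2*, orange *rdo3*). The *hub1-2* points lie apart from those of *rdo2-1* in all 24 genes, which the choice of genes required.

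The rises were not spread evenly over the genome. A stretch near the start of chromosome 1, from *AT1G01640* to *AT1G02390* in the gene order of TAIR10.1, held 42 measured genes, of which 38 were called higher in *hub1-2* and none lower. The stretch was found by listing runs of at least 3 measured neighbours called in 1 direction, and its limits were set after the values were seen, so no test was made of it. Of its 27 genes named by the annotation, 24 were called higher, which leaves out the members named through the study's list. The median difference over the 42 genes was 1.40 (2.63-fold), with 41 of 42 above 0, against 0.03 over the other 2324 measured genes of chromosome 1. One run inside the stretch held 26 consecutive genes, from *AT1G01910* to *MAN1*, while the 26 runs found elsewhere in the genome (18 higher, 8 lower) held at most 5 genes and 24 of them held 3.

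Neither *rdo2-1* nor *rdo3* shared the higher level. Relative to the L*er* mean, the median over the stretch was 1.55, 1.46 and 1.49 in the 3 *hub1-2* arrays, between -0.13 and 0.05 in those of *rdo2-1* and between 0.06 and 0.13 in those of *rdo3*. In 39 of the 42 genes, each *hub1-2* array exceeded all 9 other arrays. *AT1G01940*, a cyclophilin family gene, was 345, 398 and 362 in *hub1-2*, 64.1, 58.6 and 51.9 in *rdo2-1* and 45.7, 84.0 and 48.8 in L*er* (limma, *hub1-2* against *rdo2-1*, log2 difference 2.67, standard error 0.15, adjusted p = 2.62e-05). *AT1G01800*, of the short-chain dehydrogenases, gave 836, 1076 and 1069.7 in *hub1-2*, against 131, 145 and 145 in *rdo2-1* and 184, 177 and 185 in L*er* (log2 difference 2.81, standard error 0.14, adjusted p = 2.62e-05). All *hub1-2* arrays stood far above the others in both genes, while *rdo2-1* overlapped L*er* in the first and lay below it in the second. *EDA10*, encoding an activator of ARF GTPases (2.84, adjusted p = 0.000311), *SBI1*, encoding a methyltransferase of brassinosteroid signalling (2.65, adjusted p = 0.000118), and *AT1G02370* (2.61, adjusted p = 3.14e-05) also belong here. The genes of the stretch have varied roles and moved by different amounts. Chosen after their values were seen, *MAGO*, a subunit of the exon junction complex, rose from 2060.0, 2369.6 and 2155 to 4221, 4464 and 4197 (0.97, adjusted p = 0.000119), *PEX11C*, of peroxisome division, from 447, 535 and 380.0 to 2063, 2122 and 2057 (2.21, adjusted p = 3.14e-05), and *TOC33*, a receptor of the chloroplast import machinery, from 302, 399.5 and 302 to 1085, 1129 and 1130.0 (1.75, adjusted p = 7.2e-05). *AT1G02110* went from 6.71, 7.16 and 9.62, near background in *rdo2-1*, to 76.7, 71.6 and 88.1 (3.34, adjusted p = 2.62e-05), which leaves the size of its fold change uncertain.

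The edges differed. None of the 10 measured genes before the stretch was called, and their median difference was 0.03. Of the 10 measured genes after it, 3 were called higher, *AT1G02410* (1.08, adjusted p = 0.000343), *CLPP5* (0.76, adjusted p = 0.000514) and *BXL2* (2.23, adjusted p = 0.000204), with a median of 0.63. The 4 genes inside that were not called were *ATAF1* (0.29, adjusted p = 0.0995), *AT1G01725* (0.67, adjusted p = 0.06), *AT1G01840* (0.40, adjusted p = 0.0179) and *AT1G02320* (-0.14, adjusted p = 0.545), the last 2 with *hub1-2* intensities of 8.39, 8.46 and 8.63 and of 6.26, 9.25 and 6.11. Leaving the stretch out, 1709 of 14624 probe sets were called higher. Only RNA was measured here, so the number of copies of these genes in the lines was not tested.

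**Figure D3:**
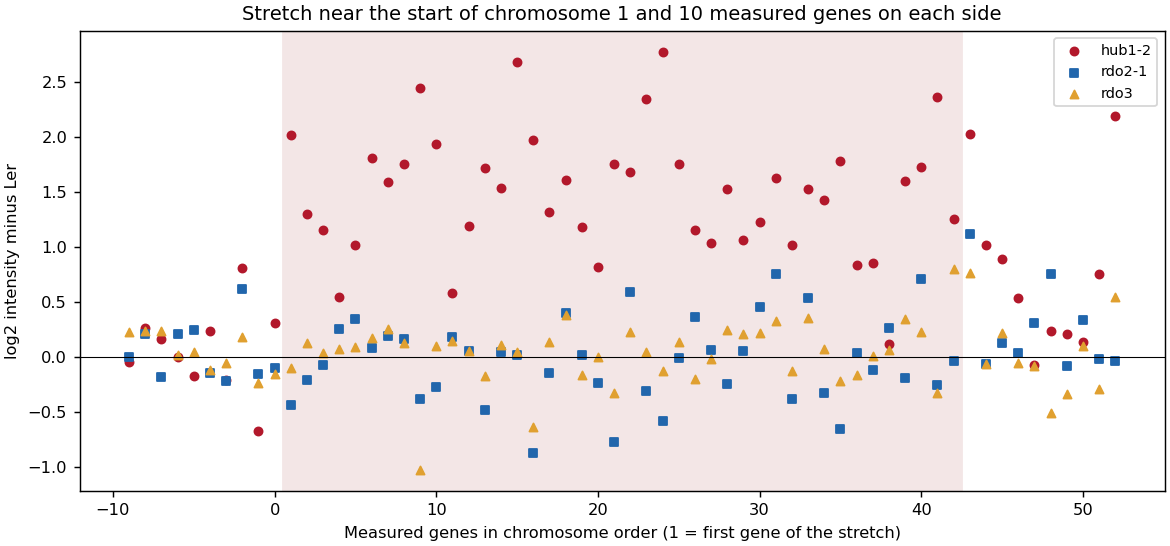
log2 intensity minus the L*er* mean (vertical) for 62 measured genes in chromosome order (horizontal), the 42 of the stretch (shaded) and 10 on each side, in *hub1-2* (red circles), *rdo2-1* (blue squares) and *rdo3* (orange triangles). Inside the stretch the *hub1-2* points lie around 1.53, the median, while those of *rdo2-1* and *rdo3* scatter around 0.

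Many genes of the plastid genome were lower in *hub1-2*. Of 62 measured plastid genes, all named by the array annotation, 34 were called lower in *hub1-2* (54.8%, against 7.26% of all annotation-named probe sets), 28 were not called, none was called higher, and the median difference was -0.85. This group was added after the values had been seen. Subunits of the photosystems led it. *psbC*, encoding an antenna protein of photosystem II, was 603, 577 and 596 in *rdo2-1* and 65.3, 45.6 and 25.8 in *hub1-2* (limma, log2 difference -3.80, standard error 0.29, adjusted p = 6.07e-05), and *psaB*, of the photosystem I reaction centre, 1588, 1607 and 2540.1 and 381, 282 and 86.0 (log2 difference -3.15, standard error 0.46, adjusted p = 0.00119). Values within *hub1-2* were spread, with replicate 3 lowest in both. *psbT* (-3.37, adjusted p = 0.00138) and *psaI* (-3.02, adjusted p = 0.000282) fell too, although their *hub1-2* values (4.66, 3.59 and 7.04, and 13.5, 7.03 and 5.34) lie near or under the array medians of 11.7 to 11.8, which leaves the size of the fold uncertain. The fall was not shared by all plastid genes, and *rpoA*, of the plastid RNA polymerase and chosen after its values were seen, stood at 176, 250.0 and 268 and 298, 356 and 354 (0.56, adjusted p = 0.0378).

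The summed intensity of the 62 plastid genes was 41803, 38032 and 44718 in *rdo2-1*, 30059, 25698 and 22782 in *hub1-2*, and 41228, 39233 and 31577 in L*er*. All *hub1-2* arrays lay below all those of *rdo2-1* and L*er*. The *rdo3* arrays, at 41914, 30400 and 29016, reached from the level of *rdo2-1* to inside the range of *hub1-2*. The median over the genes relative to the L*er* mean ran from -0.51 to -0.32 in *hub1-2* and from 0.40 to 0.48 in *rdo2-1*, but from -0.40 to 0.42 among the L*er* arrays themselves, so the wild type spanned most of the range. Without *hub1-2* replicates 2 and 3 the count of 34 became 21 and 18. Plastid transcripts mostly lack a long poly(A) tail, and the actin control probe sets, with 3' minus 5' signals of 1.04 to 1.44 in *hub1-2* and 0.61 to 1.05 in *rdo2-1*, were mostly higher in *hub1-2*, with ranges that just overlapped. The part of RNA quality in the result was not tested.

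**Figure D4:**
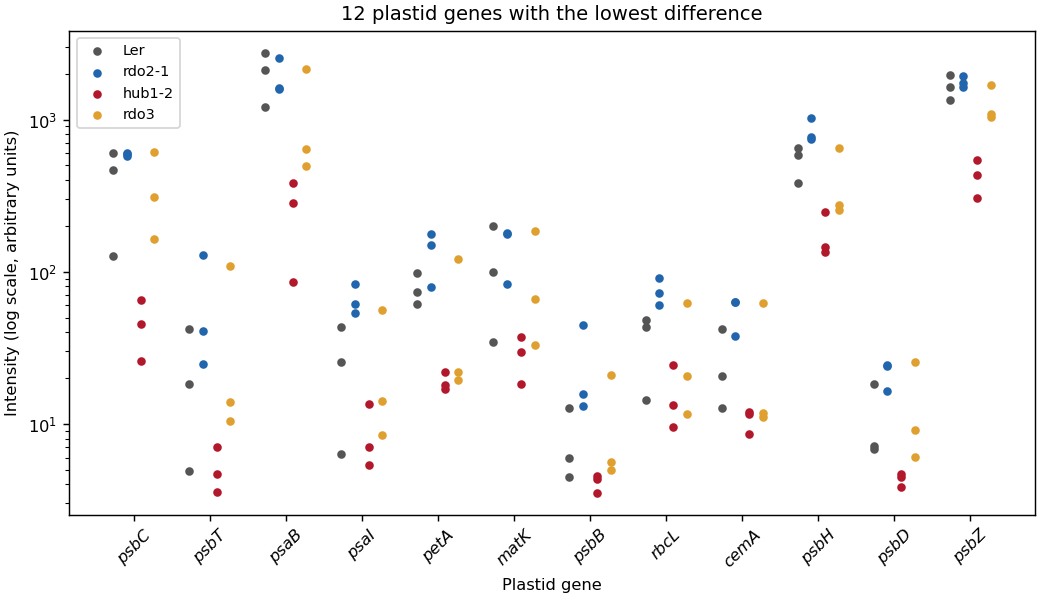
Intensity of each array (log axis, arbitrary units) for the 12 plastid genes with the lowest *hub1-2* minus *rdo2-1* difference, with 3 points per genotype (grey L*er*, blue *rdo2-1*, red *hub1-2*, orange *rdo3*). In *psbC*, for example, *hub1-2* lies between 25.8 and 65.3 and *rdo2-1* between 577 and 603, with 1 L*er* array at 127.

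Nuclear genes of photosynthesis pointed the same way. Of 33 measured, 14 were called lower in *hub1-2* and none higher, 32 had a difference below 0, and the median was -1.07 against 0.02 over all probe sets. Among annotation-named members, 7 of 11 were called lower, against 7.26% of such probe sets. The other 22 came only through the study's list and 7 were called lower, against 23.1% of such probe sets. *NPQ4*, encoding the PsbS protein of energy dissipation, was 194, 304 and 377 in *rdo2-1* and 67.8, 51.0 and 54.2 in *hub1-2* (limma, log2 difference -2.30, standard error 0.24, adjusted p = 0.000282). *LHCB4.3*, of the light harvesting antenna, gave 65.1, 71.2 and 134 and 25.4, 14.1 and 24.2 (log2 difference -2.05, standard error 0.32, adjusted p = 0.00149). The Calvin cycle genes *GAPB* (-1.91, adjusted p = 0.00607) and *SBPASE* (-1.83, adjusted p = 0.00551) fell as well. L*er* was nearer to *rdo2-1*, with medians relative to L*er* of 0.27 in *rdo2-1* and -0.93 in *hub1-2*. In whole siliques, fewer green cells and less of each transcript per cell cannot be told apart. The count rested on single arrays, since it was 5 and 3 without *hub1-2* replicates 2 and 3, 3 and 9 without *rdo2-1* replicates 1 and 3, and 26 without *rdo2-1* replicate 2. *GAPB* and *SBPASE* lost their calls without 4 of the 6 arrays in turn.

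The sulfur pathways were lower in *hub1-2*. Of 14 measured genes of sulfur uptake and assimilation, 12 were called lower and none higher, with a median of -1.04. The annotation named 4 of the 14, of which 2 were called, against 7.26% of such probe sets called lower. The other 10 came only through the study's list and all 10 were called, against 23.1% of such probe sets. *LSU1*, a marker of low sulfur supply, was 3264, 2707 and 3692 in *rdo2-1* and 636, 1122 and 521 in *hub1-2* (limma, log2 difference -2.15, standard error 0.25, adjusted p = 0.000386), and L*er* was in between (1813, 1675 and 2472). *APR1*, the reductase step of assimilation, stood at 2466, 2024 and 2255 and 833, 818 and 673 (log2 difference -1.54, standard error 0.12, adjusted p = 7.65e-05), with L*er* again in between (1406, 1409.5 and 1334). The root sulfate transporter gene *SULTR1;2* differed on 1 side only, since *rdo2-1* (305, 303 and 259.7) overlapped L*er* (364, 282 and 336) and *hub1-2* (63.3, 128 and 80.3) was below both (-1.74, adjusted p = 0.000928). Genes of the synthesis of glucosinolates, sulfur-rich defence compounds, had a median of -1.49, from 0.98 in *rdo2-1* and -0.65 in *hub1-2* relative to L*er*, 16 of 22 being called lower. Only 8 of the 22 were named by the annotation, and 2 of these were called, against 7.26% of such probe sets called lower. The other 14 came only through the study's list and all 14 were called, against 23.1% of such probe sets. *BAT5*, which imports keto acids into the plastid for this pathway, was 266, 124 and 323 in *rdo2-1*, 63.0, 54.0 and 68.5 in L*er* and 47.4, 30.3 and 29.0 in *hub1-2* (log2 difference -2.67, standard error 0.34, adjusted p = 0.000675). The glucosyltransferase gene *AT2G31790* (-2.42, adjusted p = 0.000733), *FMO GS-OX1*, which oxidizes side chains (-2.30, adjusted p = 0.000389), and *IPMI2*, of chain elongation (-2.13, adjusted p = 0.000649), were the next largest. The 12 calls of sulfur assimilation went down to 7 and 6 without *hub1-2* replicates 1 and 3, while 13 to 18 glucosinolate genes were called with any 1 array left out.

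Heat shock genes were higher in *hub1-2*. Of 23 measured, 17 were called higher and none lower, with a median of 1.10. Among annotation-named members 9 of 14 were called, against 10.6% of such probe sets called higher. The other 9 came only through the study's list and 8 were called, against 37.3% of such probe sets. *HSFA2*, a heat-induced transcription factor gene, was 40.2, 41.5 and 22.1 in *rdo2-1* and 161, 146 and 118 in *hub1-2* (limma, log2 difference 2.08, standard error 0.26, adjusted p = 0.000568). Its L*er* arrays (109, 121 and 46.0) lay above those of *rdo2-1* and overlapped those of *hub1-2* in replicate 2. The small heat shock protein gene *AT1G53540* differed from that, being 346, 415 and 204 in *rdo2-1*, 319, 277 and 182 in L*er* and 1033, 1319 and 1234 in *hub1-2* (log2 difference 1.95, standard error 0.24, adjusted p = 0.000511). *AT5G51440* (1.91, adjusted p = 0.000282) and *AT1G52560* (1.70, adjusted p = 0.00168) also encode small heat shock proteins. The 3 measured chaperones of organelles, *CR88* (1.16, adjusted p = 0.00343), *Hsp89.1* (1.10, adjusted p = 0.0053) and *HSP60* (1.06, adjusted p = 0.00111), were called higher. Each was named only through the study's list, where 37.3% of probe sets were called higher. Their count was 1 without *hub1-2* replicate 1, 2 or 3 and 2 without *rdo2-1* replicate 1. Between 13 and 17 heat shock genes were called with 1 array left out.

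Regulators of seed maturation did not move together. Of 8 measured, 1 was called higher, 2 lower and 5 neither. The calls fell among the 4 named only through the study's list, where 37.3% of probe sets were called higher and 23.1% lower. None of the 4 named by the annotation was called. *DOG1*, the major regulator of seed dormancy, was 712, 521 and 599 in *rdo2-1* and 203, 204 and 206 in *hub1-2* (limma, log2 difference -1.57, standard error 0.14, adjusted p = 0.000157), both under L*er* (1025, 1538 and 1016). The *hub1-2* arrays were nearly equal to each other for this gene. *FUS3*, a transcription factor gene of embryo maturation, was 115, 131 and 154 and 70.9, 78.8 and 46.6 (log2 difference -1.05, standard error 0.22, adjusted p = 0.00656), a call that was lost whenever 1 array was left out (adjusted p from 0.0108 to 0.0239). Among 34 late embryogenesis abundant genes, 4 were called higher (1 or 2 without any single *hub1-2* replicate or *rdo2-1* replicates 1 or 3) and 4 lower (2 without *hub1-2* replicate 3 or *rdo2-1* replicate 1). The annotation named 32 of the 34, with all of these calls. Of probe sets named in that way 10.6% were called higher and 7.26% lower, so the counts are near the background. With each array centred on its median, the same list had 2 called higher and 6 lower. *LEA18* rose from 7304, 8725 and 6614 to 13298, 15539 and 15967 (0.99, adjusted p = 0.000305), and *AT2G42560* fell from 3815, 5309 and 3227 to 1766, 1759 and 1786 (-1.19, adjusted p = 0.000756, but 0.0467 with all 12 arrays in the fit). *M17* was 1085, 2002 and 950.3 in *rdo2-1* and 2656, 2385 and 3177 in *hub1-2* (1.09, adjusted p = 0.00785), above L*er* (532, 907 and 218) in both, and its call was lost without each array except *rdo2-1* replicate 2 (adjusted p from 0.0169 to 0.0371). Of 18 storage protein and oil genes, 7 were called lower and 1 higher. The study's list alone named 11 of them, with 5 of the falls and the rise (23.1% of such probe sets were called lower), and of the 7 named by the annotation 2 were called, at a median of -0.08. *KCS18*, which elongates the fatty acids of seed oil (-1.62, adjusted p = 0.00888), and *SESA1* (-0.21, adjusted p = 0.00744), whose intensity of 26691, 26341 and 27916 in *hub1-2* was 1.16-fold under 30836, 32025 and 30867, were among the falls. The call of *KCS18* was lost without single arrays. That of *SESA1* was lost without each array in turn (adjusted p from 0.0118 to 0.0428), with CyberT (0.0125) and after quantile normalization (limma, -0.11, adjusted p = 0.12). The 7 falls became 1 without *hub1-2* replicate 3 and 2 without *hub1-2* replicate 2 or *rdo2-1* replicates 1 or 3. *PKP-BETA1*, the plastid pyruvate kinase gene of oil synthesis, was higher in *hub1-2* (295, 304 and 301) than in *rdo2-1* (128, 118 and 156, 1.17, adjusted p = 0.000679), with L*er* at 360.1, 332 and 344.

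Some genes of hormone pathways differed. For gibberellin, 5 of 10 measured genes were called higher in *hub1-2* and none lower, including genes of synthesis and of repression. Of the 6 named only through the study's list 4 were called, where 37.3% of probe sets were called higher. Of the 4 named by the annotation 1 was called, where 10.6% were. *GA3*, encoding ent-kaurene oxidase of gibberellin synthesis, was 313, 356 and 316 in *rdo2-1* and 883, 926 and 938 in *hub1-2* (limma, log2 difference 1.48, standard error 0.12, adjusted p = 6.91e-05). The DELLA repressor gene *RGL3* was 45.4, 44.0 and 49.5 and 171, 166 and 164 (log2 difference 1.85, standard error 0.15, adjusted p = 8.85e-05), with L*er* at 154, 139 and 114, and *GAI*, another DELLA gene, rose too (1.35, adjusted p = 0.00177). For *GA3* too the L*er* arrays (442, 443 and 399) lay between those of the mutants without overlap. *KAO2*, of gibberellin synthesis, was also called (1.56, adjusted p = 0.000812), and 4 of the 5 calls were of genes named through the study's list. Of 4 measured abscisic acid genes 2 were called higher, all 4 being named only through the study's list, where 37.3% of probe sets were called higher, so the count is near the background. *ABA3*, whose product activates the last oxidase of the synthesis, was 175, 209 and 138 in *rdo2-1* and 623, 572 and 615 in *hub1-2* (log2 difference 1.81, standard error 0.17, adjusted p = 0.000152). *CYP707A2*, which breaks the hormone down in seeds, was 264, 311 and 231 and 592, 463 and 588 (1.03, adjusted p = 0.00154), with an adjusted p of 0.0108 without *hub1-2* replicate 3. L*er* lay between the mutants for *ABA3* (381, 353 and 314) and below both for *CYP707A2* (115, 206 and 181).

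Of 6 measured jasmonate genes 5 were called lower in *hub1-2*, and of 5 measured genes of salicylate and pathogen response 4 were called higher, all 11 being named only through the study's list, where 23.1% of probe sets were called lower and 37.3% higher. *JAZ5*, a repressor gene of jasmonate signalling, was 197, 115 and 98.4 in *rdo2-1* and 42.6, 44.7 and 37.0 in *hub1-2* (limma, log2 difference -1.66, standard error 0.25, adjusted p = 0.00142). *LOX2*, of jasmonate synthesis, was 2706, 3942 and 5449.6 and 1925, 1541 and 1546 (-1.22, adjusted p = 0.00285) and lost its call without *hub1-2* replicates 2 or 3 (adjusted p 0.012 and 0.0155). *EDS16*, the isochorismate synthase gene of salicylate synthesis, was 202, 181 and 153 in *rdo2-1* and 644, 728 and 524 in *hub1-2* (log2 difference 1.82, standard error 0.17, adjusted p = 0.000154), with L*er* at 558, 534 and 340.4. In this gene *hub1-2* overlapped L*er* and *rdo2-1* lay below both. *NPR1*, the co-activator of salicylate responses, had 17.4, 28.5 and 26.8 and 55.8, 67.9 and 57.9 (1.35, adjusted p = 0.00186), with adjusted p of 0.0106 and 0.0101 without *hub1-2* replicates 2 and 3. The 5 falls became 3 without *hub1-2* replicates 2 or 3, and the 4 rises became 2, 2 and 1 without *hub1-2* replicates 1, 2 and 3. The auxin conjugation gene *GH3.3* was 147, 207 and 175 in *rdo2-1*, 26.7, 42.3 and 62.2 in *hub1-2* and 50.8, 59.8 and 27.5 in L*er* (log2 difference -2.08, standard error 0.29, adjusted p = 0.000903).

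The clock genes that were called split by phase. Of 8 measured, the evening genes *PRR3*, *GI*, *TOC1* and *ELF3* were called higher and the morning genes *LHY*, *CCA1* and *RVE1* lower in *hub1-2*, 7 of the 8 being named only through the study's list. Of these 7, 3 were called higher and 3 lower, against 37.3% and 23.1% of all probe sets named in that way. *PRR3* was 47.6, 49.6 and 52.0 in *rdo2-1*, 133, 166 and 113 in L*er* and 203, 209 and 237 in *hub1-2* (limma, log2 difference 2.12, standard error 0.15, adjusted p = 4.91e-05). *LHY* ran the other way, from 825, 669 and 1043 in *rdo2-1* and 556, 416 and 612 in L*er* to 154, 158 and 108 in *hub1-2* (log2 difference -2.59, standard error 0.20, adjusted p = 7.2e-05). *GI*, which links the clock to flowering and was the only one of the 8 named by the annotation, was 74.6, 102 and 161 and 329, 382 and 389.6 (log2 difference 1.77, standard error 0.25, adjusted p = 0.00102). L*er* lay between the mutants in *PRR3* and *LHY* without overlap, while its *GI* arrays (357, 213 and 307) reached into the range of *hub1-2*. The values of *TOC1* (1.69, adjusted p = 0.00137), *ELF3* (1.15, adjusted p = 0.000707), *CCA1* (-0.79, adjusted p = 0.00121) and *RVE1* (-1.19, adjusted p = 0.00381) were smaller, and *RVE1* lost its call without any *hub1-2* replicate or *rdo2-1* replicate 1 (adjusted p from 0.0104 to 0.0213). The sources used here do not state the hour of harvest. Next to *FLC*, its relative *MAF5* was 6.25, 5.98 and 6.15 in *rdo2-1* and 19.1, 26.1 and 19.9 in *hub1-2* (1.81, adjusted p = 0.000108), and the *rdo2-1* values lie under the array median.

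Some genes of the machinery in which HUB1 and TFIIS act were higher in *hub1-2*. Of 7 measured genes of transcription elongation and H2B ubiquitination, 4 were called higher and 1 lower. The study's list alone named 5 of the 7, and 37.3% of probe sets named in that way were called higher. Of the 2 named by the annotation, none was called higher and 1 was called lower. Besides *HUB1* (limma, log2 difference 2.13, standard error 0.19, adjusted p = 0.000116), *HUB2*, its partner ligase, was 10.7, 9.20 and 9.65 in *rdo2-1* and 19.3, 18.9 and 20.1 in *hub1-2* (0.98, adjusted p = 0.000958), and *ELF7*, a subunit of the PAF1 complex, was 85.7, 101.2 and 101.5 and 191, 208 and 206 (1.07, adjusted p = 0.000928). The deubiquitinase gene *OTLD1* was also called (0.97, adjusted p = 0.00152 and 0.0108 without *hub1-2* replicate 2). *SDG25*, the gene of the methyltransferase also named ATXR7, gave 20.7, 30.4 and 43.2 and 43.2, 45.8 and 54.3 (0.66, adjusted p = 0.0721), which did not pass the threshold. The low level of *HUB2* leaves its fold uncertain, and all 4 genes called higher were named through the study's list. *AT5G08565*, the gene called lower (-0.95, adjusted p = 0.00958), lost its call without each array except *rdo2-1* replicate 3 (adjusted p from 0.0224 to 0.0412).

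Some genes of the fruit wall and surface were lower in *hub1-2*. Of 5 measured genes of fruit opening, 3 were called lower. Of the 2 named by the annotation 2 were called, where 7.26% of probe sets were called lower. Of the 3 named only through the study's list 1 was called, where 23.1% were. *ALC*, a transcription factor gene of the separation layer, was 125, 64.3 and 136 in *rdo2-1*, 49.4, 40.2 and 56.3 in L*er* and 21.5, 22.2 and 20.4 in *hub1-2* (limma, log2 difference -2.27, standard error 0.27, adjusted p = 0.000467), so that the 3 genotypes did not overlap. *SHP2*, of valve margin identity (-0.94, adjusted p = 0.00361), lost its call without *hub1-2* replicates 1 or 2 or *rdo2-1* replicate 1 (adjusted p from 0.0133 to 0.0172). *NAP*, a senescence transcription factor gene, gave 399.6, 296 and 324 in *rdo2-1*, 213, 185 and 141 in L*er* and 74.1, 73.4 and 32.9 in *hub1-2* (log2 difference -2.58, standard error 0.30, adjusted p = 0.000404), the same order. Among 11 measured genes of cutin, wax and lipid transfer, 6 were called lower and 1 higher, with 4 of the 6 being the lipid transfer genes, *LTP4* included (-2.60, adjusted p = 0.00332). The study's list alone named 8 of the 11, with 4 of the falls and the rise, where 23.1% of probe sets were called lower and 37.3% higher. Of the 3 named by the annotation, 2 were called lower. The 6 calls went down to 4 without *hub1-2* replicate 3 or *rdo2-1* replicate 1, and *LTP4* lost its call without *hub1-2* replicates 2 or 3 or *rdo2-1* replicates 1 or 3 (adjusted p from 0.0102 to 0.0184). Of 7 measured genes of cell wall loosening, all named by the annotation, 2 were called lower, 1 higher and 4 neither. Among all probe sets named in that way, 7.26% were called lower and 10.6% higher, so the 1 rise is near the background. *EXPA15*, an expansin gene, was 621, 178 and 1069.7 in *rdo2-1* and 130.3, 53.7 and 70.6 in *hub1-2* (log2 difference -2.63, standard error 0.57, adjusted p = 0.00706), a call that was lost without 4 arrays in turn (adjusted p from 0.0164 to 0.0332). The 1 rise was the expansin-like gene *EXLA1* (0.46, adjusted p = 0.00754), whose call held only without *rdo2-1* replicate 2 among the settings with 1 array left out (adjusted p from 0.0162 to 0.0382 in the others). With each array centred on its median, *EXLA1* was not called (limma, 0.34, adjusted p = 0.0332). Without *hub1-2* replicates 2 or 3 or *rdo2-1* replicate 1, none of the 7 was called.

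Smaller groups held single large differences. *AGAL1*, an alpha-galactosidase gene, was 8.05, 8.57 and 8.15 in *rdo2-1* and 8.60, 8.55 and 8.92 in L*er*, all under the array median, and 89.4, 46.9 and 61.4 in *hub1-2* (limma, log2 difference 2.95, standard error 0.23, adjusted p = 6.92e-05). *STS*, of the synthesis of raffinose family sugars (1.60, adjusted p = 0.0025), and the galactinol synthase gene *GolS1* (0.78, adjusted p = 0.00679) were higher in *hub1-2* too, which makes 3 of 3 measured genes of these sugars, each named only through the study's list, where 37.3% of probe sets were called higher. Both lost their calls without *hub1-2* replicate 3 (adjusted p 0.0152 and 0.0223) or *rdo2-1* replicate 1 (0.0128 and 0.0146), and *GolS1* also without *hub1-2* replicates 1 or 2 (0.0269 and 0.0215). Metal genes differed in both directions. The zinc transporter genes *IRT3* (381, 354 and 289 in *rdo2-1*, 99.9, 118 and 107 in L*er*, 112, 112 and 102 in *hub1-2*, log2 difference -1.64, standard error 0.15, adjusted p = 0.00017) and *ZIP1* (-1.97, adjusted p = 0.00144) were above L*er* in all *rdo2-1* arrays, and *hub1-2* overlapped L*er* for *IRT3* and lay below it for *ZIP1*. *FER1*, the gene of the iron store ferritin, was 1916, 2033 and 2443 in *rdo2-1* and 5926, 4775 and 3179.9 in *hub1-2* (1.08, adjusted p = 0.0034), a call lost without *hub1-2* replicate 2 or *rdo2-1* replicates 1 or 2 (adjusted p from 0.0109 to 0.0178). *CAT3*, a catalase gene, was higher in *hub1-2* (1.23, adjusted p = 5.34e-05) and *APX1*, of ascorbate peroxidase, lower (-1.08, adjusted p = 0.000662). Of 12 flavonoid genes 2 were called, *TT5* (-1.19, adjusted p = 0.00147) and *MYBL2* (-0.62, adjusted p = 0.00467), both lower. Both were among the 6 named only through the study's list, where 23.1% of probe sets were called lower. The count is near that share, and no member of the 6 named by the annotation was called. *MYBL2* lost its call without *hub1-2* replicates 2 or 3 or *rdo2-1* replicates 1 or 3 (adjusted p from 0.0119 to 0.0235).

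Markers of other cell types were few. Of the lists for embryo, endosperm, seed coat, phloem, stomata, pollen and root, 1 of 7, 0 of 4, 1 of 9, 3 of 4, 2 of 4, 1 of 5 and 0 of 4 genes were measured. *MYB60*, expressed in guard cells, fell from 75.3, 37.0 and 48.0 to 8.45, 15.2 and 11.8 (limma, log2 difference -2.15, standard error 0.29, adjusted p = 0.000832), and *APL*, of phloem identity, from 170.3, 110.3 and 115 to 70.9, 57.2 and 68.3 (-0.99, adjusted p = 0.00575), with its call lost without any *hub1-2* replicate or *rdo2-1* replicate 1 (adjusted p from 0.0151 to 0.0289). The seed coat gene *ARA12*, outside the rule for named genes and chosen after its values were seen, gave 184, 212 and 306 and 391, 362 and 394 (0.74, adjusted p = 0.014). The part of the mix of cell types in the results was not tested.

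**Figure D5:**
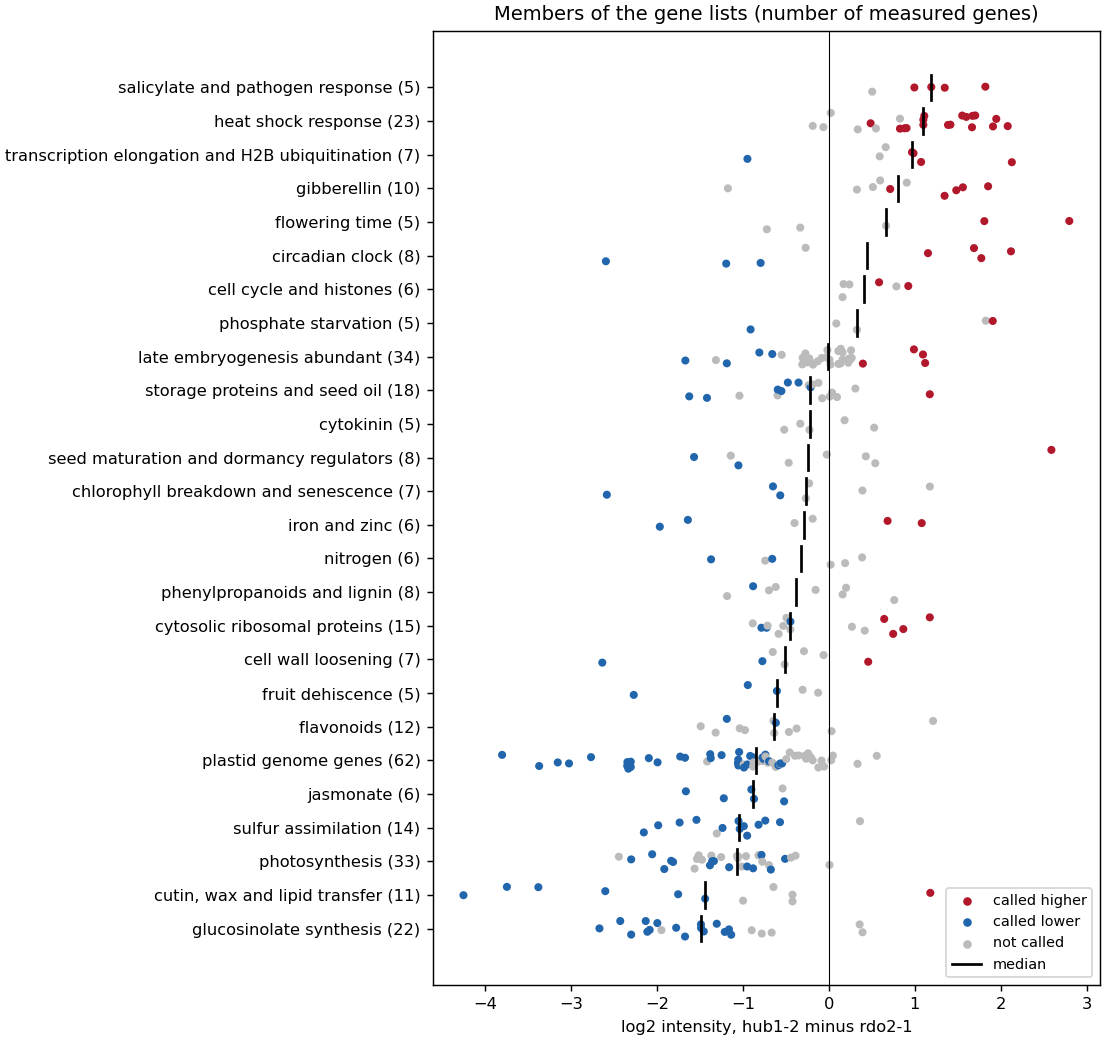
log2 intensity in *hub1-2* minus *rdo2-1* (horizontal) of the members of each gene list with at least 5 measured genes, other than pseudogenes and transposable element genes, with the number measured in brackets, red where called higher, blue where called lower and grey where not called, and a black bar at the median. Heat shock genes have their median at 1.10 and glucosinolate genes at -1.49.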

How the data were processed

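RNA of whole siliques was hybridized to Affymetrix ATH1 arrays, 1 sample per array, from 3 independent biological replicates of each genotype according to the paper. GC-RMA, as run by the authors, corrects the background, normalizes between arrays and summarizes probes. The deposited values are a linear intensity for 22810 probe sets. Without the 64 control probe sets, those were kept whose second-highest intensity reached 7.5 over 9 arrays (*hub1-2*, *rdo2-1* and L*er*), in place of the study's filter on detection. log2 intensities of the 6 arrays were fitted in limma 3.58.1 (R 4.3.3) with an intensity trend, and calls are at a Benjamini-Hochberg adjusted p under 0.01 over 14666 probe sets. The test was checked on simulated data. CyberT, the study's test, was an alternative, beside other filters, scalings, thresholds, a block for the replicate number and leaving out each array.

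Named genes are the 12 largest rises and falls among called probe sets with 1 gene, a mean above the median and arrays that do not overlap, the genes the paper names, and up to 4 called rises and falls of each list. A gene with several probe sets was counted by its brightest. Members and lists were chosen with earlier results of these data known, and the plastid list and the chromosome 1 stretch after the values were seen. Gene order is that of TAIR10.1. Promoter motifs were not analysed here. The number of arrays limits the precision.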

Additional observations from a re-analysis of the deposited data

How the results depend on the processing

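The 2867 calls (1747 higher, 1120 lower in *hub1-2*) became 5466 (3153 and 2313) at an adjusted p under 0.05 and 1410 (874 and 536) when a 2-fold difference was also required. CyberT called 3944 (2318 and 1626), of which 2852 are among the 2867 of limma. With a replicate block the counts were 2819 (1721 and 1098), and same-numbered arrays deviated together only for replicate 1 (correlations of 0.23, -0.05 and 0.06 for replicates 1, 2 and 3), so the numbers were not used as pairs. With 1 array left out, the calls lay between 1120 and 2976, the rises between 679 and 1733 and the falls between 441 and 1243. The calls were 1521, 1243 and 1120 without *hub1-2* replicates 1, 2 and 3 and 1615 without *rdo2-1* replicate 1, fewer arrays being tested in each. With other filters, no trend, all 12 arrays, other scalings, a pseudocount of 8 or unique probe sets, the counts stayed within 1.5 times. No named gene changed direction in the settings that kept it. The stricter filter kept 134 of the 144, unique probe sets 141 and each other setting all. Calls were lost for 44 genes at the 2-fold requirement, for 22 with no trend, for 33, 46 and 51 genes without *hub1-2* replicates 1, 2 and 3, for 43, 12 and 22 without *rdo2-1* replicates 1, 2 and 3, for 12 with centred arrays, for 8 with the replicate block and for 2 to 7 each with CyberT, no filter, a pseudocount, quantile normalization or all 12 arrays. Detection calls were not used here, so low intensities, such as those near the array medians of 11.5 to 11.8 in the 6 arrays, may lie at background. With 3 arrays per genotype, differences that missed the threshold are not shown to be absent.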
